A study of Mus musculus with 8 samples.

Results

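Polycomb repressive complexes keep developmental genes silent. In PRC2, EZH1 or EZH2 methylates lysine 27 of histone H3 and needs EED and SUZ12 to do so, while JARID2 is an accessory subunit that helps to bring PRC2 to chromatin. In PRC1, RING1 or RNF2 (also known as RING1B) ubiquitinates histone H2A, and a CBX subunit such as CBX2 or CBX7 reads the methylated H3 of canonical PRC1. CBX7 is the main CBX subunit of undifferentiated mESCs and CBX2 is used more in differentiating cells. SCML2 and SCMH1 are mammalian relatives of the fly protein Sex comb on midleg and associate with PRC1. The expression of 10 genes was followed here: Ezh1, Ezh2, Eed, Suz12, Jarid2, Cbx2, Cbx7, Rnf2, Scml2 and Scmh1, out of 18094 genes in the expression table. They were taken by name, and all 10 averaged at least 10 normalized counts per library, the minimum for a test. The first 8 are subunits of the complexes. The choice of members was made with earlier results of these data known, which limits the tests of these 8. Scml2 and Scmh1 were chosen by their measured values, because the CTCF-K20R libraries were above WT on day 0 and below WT on day 4, so their values in these comparisons are a description and no test is given for them.

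The study made RNA-seq libraries from mESCs before differentiation (day 0) and from embryoid bodies (EBs) on day 4 after differentiation, and each group of 1 genotype and 1 day had 2 libraries. All cells were of the mouse embryonic stem cell line E14Tg2A, kept in LIF and 2i on a layer of inactivated fibroblasts, and EBs are the aggregates that form in hanging drops in serum medium once LIF is left out. WT cells carried no mutation, and in the CTCF-K20R cells lysine 20 of CTCF, a DNA-binding protein that organizes chromatin loops, was replaced with arginine by CRISPR/Cas9 in mESC clones. The sources used here do not say whether the 2 libraries of a genotype came from different clones, so the effect of the mutation and differences between clones or cultures cannot be told apart. In these bulk samples, fewer cells of a type and less RNA per cell cannot be told apart either.

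The deposited normalized counts summed to between 19412659 and 21311513 per library, and 1 read was worth about 0.810 to 1.15 normalized counts. The square of the difference within each pair of libraries, divided by the value for independently drawn reads, averaged 0.326 (day 0) and 0.246 (day 4) in WT and 4.36 (day 0) and 4.88 (day 4) in CTCF-K20R. The WT pairs thus differed by less than sampling noise, and each was counted as 1 sample, so no change in WT has a replicate check. Every error below comes from the 2 CTCF-K20R libraries of each day, pooled over both days and drawn toward the spread of genes at a similar level. Ctcf itself was expressed in every library, at 3938 to 4256 normalized counts in WT and 4408 to 4926 in CTCF-K20R, with a log2 fold change of 0.19 on both days. Pluripotency markers summed to between 109552 and 112725 normalized counts in the 4 mESC libraries, and all 8 of them had a mean of at least 10 in each group. Fibroblast markers, which a feeder layer would express, summed to between 513 and 526 in WT mESCs. In CTCF-K20R mESCs they summed to between 193 and 199. Most of each sum was Thy1, at means of 462 and 104, and the rest was not lower in CTCF-K20R. Thy1 was also the highest of these markers in CTCF-K20R EBs, at 553. Of the fibroblast markers, Postn and Dcn were at 0 in both mESC groups. On day 0, 1 of the 6 tested was upregulated and 1 downregulated, and their part in the day 0 comparisons was not tested.

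Promoter sequences are shown for Cbx7, the subunit with the largest genotype effect, and for Scml2 and Scmh1, because the mutated protein binds DNA. RefSeq (GRCm38.p6) gave windows upstream of the start for 9 of the 10 genes, 11 windows in all, and Cbx2 was not matched. Capitals mark AGNNGGC, a 7-letter core of the CTCF motif, searched on both strands (matches may overlap each other, and on the other strand it reads GCCNNCT). Each line gives the part of the 250 bases before the RefSeq start that lies outside annotated exons, 5′ to 3′ on the strand of the gene. For Cbx7 it was chr15:79932769-79932896 (minus strand, 128 bases, ending 122 bases before the start), for Scml2 chrX:161162500-161162749 (plus strand, 250 bases) and for Scmh1 chr4:120405098-120405280 (plus strand, 183 bases, ending 67 bases before the start).
Cbx7: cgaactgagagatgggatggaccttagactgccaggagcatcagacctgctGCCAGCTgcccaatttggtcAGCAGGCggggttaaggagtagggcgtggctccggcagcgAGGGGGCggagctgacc
Scml2: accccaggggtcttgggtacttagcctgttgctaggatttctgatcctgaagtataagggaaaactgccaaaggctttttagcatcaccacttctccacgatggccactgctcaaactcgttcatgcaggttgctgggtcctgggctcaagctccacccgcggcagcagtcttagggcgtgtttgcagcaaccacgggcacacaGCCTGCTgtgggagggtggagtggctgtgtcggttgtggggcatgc
Scmh1: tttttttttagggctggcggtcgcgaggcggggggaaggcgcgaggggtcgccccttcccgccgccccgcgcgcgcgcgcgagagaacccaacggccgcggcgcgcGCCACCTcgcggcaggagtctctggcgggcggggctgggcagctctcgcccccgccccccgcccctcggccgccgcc
The printed stretch of Cbx7 held 3 matches and those of Scml2 and Scmh1 held 1 each. Over the full windows, 9 of the 11 held the motif, as did 52.5% of the 32851 windows of 250 bases in RefSeq, so a match is a description of these letters and not a binding site. The Scml2 window held 7 CpG dinucleotides, close to the median of 6 over all windows, whereas the Cbx7 window held 23 and the first Scmh1 window 45. The RefSeq starts used for Cbx7 and Scml2 lie inside the annotated genes, and their windows begin 38.2 kb and 45.3 kb downstream of the GENCODE gene starts. Which start was used in these cells was not tested.

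On day 4 after differentiation, Cbx7 and Cbx2 showed the largest genotype effects among the 8 subunits, and in opposite directions. Cbx7 was 4.37-fold higher in CTCF-K20R EBs than in WT EBs, and Cbx2 was 1.70-fold lower. Among the PRC2 genes, Eed, Suz12 and Jarid2 were upregulated by 1.30- to 1.36-fold and Ezh2 was downregulated by 1.25-fold. Of the 8 subunits, 4 were upregulated and 2 were downregulated at an adjusted p under 0.05 (limma on log2(value + 1), Benjamini-Hochberg adjustment over the 15767 genes tested). Over all genes tested, 21.5% were upregulated and 18.6% downregulated at this threshold. Without CTCF-K20R EB library 1 these shares were 11.9% and 9.41%, and without library 2 they were 12.2% and 9.94%. By the definition of DEGs in the study, which also asks for a fold change above 2, 1 of the 8 was upregulated and 0 were downregulated (6.89% and 8.65% of all genes tested). The median log2 fold change of the 8 was 0.39, against 0.01 over all genes and 0.09 over the 43 other Polycomb genes tested. The median absolute log2 fold change was 0.42, against 0.41 over all genes. The libraries of WT and CTCF-K20R EBs did not overlap for any of the 8 subunits, with 5 above and 3 below WT, and 85.0% of all genes tested had no overlap on day 4. When limma was run without its mean-variance trend, the calls of Eed, Suz12, Jarid2 and Ezh2 were lost (adjusted p between 0.0512 and 0.0700), and those of Cbx7 and Cbx2 were kept. In that fit, 14.4% of all genes tested were upregulated and 12.9% downregulated.

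**Figure D1:**
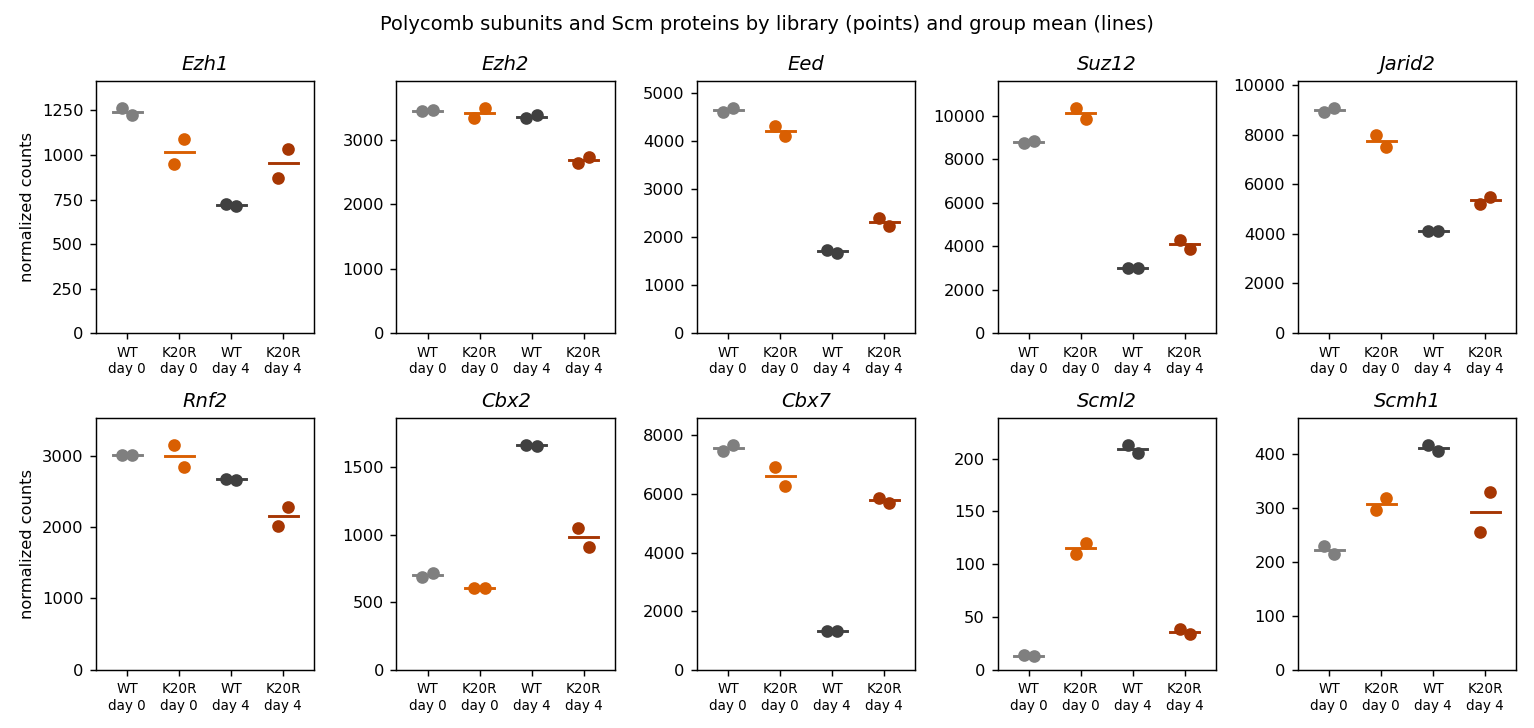
Normalized counts (vertical axis, from 0, with its own scale for each gene) of the 10 genes in the 8 libraries. Each point is a library and each horizontal line is the mean of a group, with mESCs on day 0 to the left and EBs on day 4 to the right, WT first. The mean of Cbx7 was 1322 in WT EBs and 5779 in CTCF-K20R EBs, and that of Scml2 was 13.3 on day 0 and 209 on day 4 in WT and 115 and 36.2 in CTCF-K20R.

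Among the catalytic subunits of PRC2, Ezh2 (ENSMUSG00000029687, chr6:47530139-47595341, GRCm38) is the methyltransferase of dividing cells. Its normalized counts were 3451 and 3462 in WT mESCs, 3344 and 3498 in CTCF-K20R mESCs, 3346 and 3384 in WT EBs and 2644 and 2740.3 in CTCF-K20R EBs. The CTCF-K20R EB libraries were thus the lowest of all 8, and the 2 genotypes overlapped on day 0. The log2 fold change on day 4 was -0.32 (SE 0.0526, Benjamini-Hochberg adjusted p = 0.00617 in limma), and on day 0 it was -0.02 with a 95% interval from -0.15 to 0.12. Without CTCF-K20R EB library 1 the day 4 call was lost (log2 fold change -0.30, Benjamini-Hochberg adjusted p = 0.0576 in limma).

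Ezh1 (ENSMUSG00000006920, chr11:101191115-101226463) encodes the other methyltransferase, which is more typical of non-dividing cells. It had 1264 and 1224 normalized counts in WT mESCs, 949.9 and 1089 in CTCF-K20R mESCs, 725 and 712 in WT EBs and 871 and 1035 in CTCF-K20R EBs. Both CTCF-K20R libraries lay below WT on day 0 and above WT on day 4. Neither difference passed the test, with a log2 fold change of 0.40 on day 4 (95% interval 0.06 to 0.74, Benjamini-Hochberg adjusted p = 0.0644 in limma) and -0.29 on day 0 (95% interval -0.63 to 0.05, adjusted p = 0.212 from the same test). Ezh1 passed on day 4 under 4 of 20 alternative settings, among them quantile normalization (0.44, Benjamini-Hochberg adjusted p = 0.0431 in limma). Per kb of exon, which allows levels of different genes to be compared, Ezh2 stood at 1201 normalized counts in WT EBs against 118 for Ezh1, and at 961 against 157 in CTCF-K20R EBs.

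EED binds the methylated H3 that PRC2 makes. Eed (ENSMUSG00000030619, chr7:89954654-89980983) had 4602 and 4679 normalized counts in WT mESCs, 4314 and 4107 in CTCF-K20R mESCs, 1730.1 and 1672 in WT EBs and 2382 and 2227 in CTCF-K20R EBs. Both genotypes had lower values in EBs than in mESCs, and the CTCF-K20R EBs lay between WT EBs and the mESCs. The log2 fold change on day 4 was 0.44 (SE 0.0621, Benjamini-Hochberg adjusted p = 0.00385 in limma), and on day 0 it was -0.14 (95% interval -0.30 to 0.01).

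SUZ12 is the scaffold of PRC2. Suz12 (ENSMUSG00000017548, chr11:79993106-80034123) had 8752 and 8817 normalized counts in WT mESCs, 10357 and 9874 in CTCF-K20R mESCs, 3007 and 2979 in WT EBs and 4284 and 3882 in CTCF-K20R EBs. It was the only 1 of the 8 subunits whose CTCF-K20R libraries lay above WT on both days. The log2 fold change was 0.45 on day 4 (SE 0.0680, Benjamini-Hochberg adjusted p = 0.00485 in limma) and 0.20 on day 0 (95% interval 0.03 to 0.37, adjusted p = 0.108 from the same test).

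Jarid2 (ENSMUSG00000038518, chr13:44729474-44921643) followed Eed. Its normalized counts were 8920.5 and 9073 in WT mESCs, 7967 and 7513 in CTCF-K20R mESCs, 4102 and 4134 in WT EBs and 5208 and 5492 in CTCF-K20R EBs. The log2 fold change on day 4 was 0.38 (SE 0.0545, Benjamini-Hochberg adjusted p = 0.00406 in limma), and without CTCF-K20R EB library 2 the call was lost at 0.34 (adjusted p = 0.0542 from the same test). On day 0 the CTCF-K20R libraries lay below WT, with a log2 fold change of -0.22 (95% interval -0.35 to -0.08, adjusted p = 0.0529 from the same test). Jarid2 passed on day 0 under 7 of 20 alternative settings, among them quantile normalization (-0.24, Benjamini-Hochberg adjusted p = 0.0326 in limma). The 20 nearest genes tested around Jarid2 gave a median of -0.57 on day 4 (log2 fold change), opposite in sign to Jarid2.

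In PRC1, Rnf2 (ENSMUSG00000026484, chr1:151458004-151500955) encodes the main ubiquitin ligase of mESCs. It had 3006 and 3013 normalized counts in WT mESCs, 3156 and 2841 in CTCF-K20R mESCs, 2680.2 and 2666 in WT EBs and 2019 and 2288 in CTCF-K20R EBs. The genotypes overlapped on day 0, and on day 4 both CTCF-K20R libraries were below WT without passing the test (log2 fold change -0.31, 95% interval -0.56 to -0.07, Benjamini-Hochberg adjusted p = 0.0516 in limma). Rnf2 passed on day 4 under 7 of 20 alternative settings, among them quantile normalization (-0.41, Benjamini-Hochberg adjusted p = 0.0162 in limma) and the same total per library (-0.42, adjusted p = 0.0208).

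Cbx7 (ENSMUSG00000053411, chr15:79915807-79971119) gave the largest difference. Its normalized counts were 7457 and 7683 in WT mESCs, 6910.0 and 6289 in CTCF-K20R mESCs, 1319 and 1325 in WT EBs and 5865 and 5694 in CTCF-K20R EBs. In WT it was 5.73-fold lower in EBs than in mESCs, and in CTCF-K20R it was 1.14-fold lower. The log2 fold change between genotypes was 2.13 on day 4 (SE 0.0643, Benjamini-Hochberg adjusted p = 3.35e-05 in limma) and -0.20 on day 0 (95% interval -0.36 to -0.04, adjusted p = 0.0986 from the same test). Cbx7 shares 100 exonic bases with Apobec3 on the opposite strand, and the sources used here do not say whether strand was used in the counting, so reads of the shared stretch may count for either gene. In normalized counts, Apobec3 stood at 631 and 645 in WT EBs against 975 and 885 in CTCF-K20R EBs. The 20 nearest genes tested around Cbx7 gave a median of 0.23 on day 4 (log2 fold change).

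Cbx2 (ENSMUSG00000025577, chr11:119022962-119031270) moved the other way. It had 688 and 721 normalized counts in WT mESCs, 605 and 609 in CTCF-K20R mESCs, 1668 and 1660.4 in WT EBs and 1053 and 910.3 in CTCF-K20R EBs. It was thus higher in EBs than in mESCs in both genotypes, and less so in CTCF-K20R. The log2 fold change on day 4 was -0.76 (SE 0.106, Benjamini-Hochberg adjusted p = 0.00351 in limma), and on day 0 it was -0.21 (95% interval -0.48 to 0.05). Per kb of exon, the levels of Cbx7 and Cbx2 were 2224 and 185 normalized counts in WT mESCs, 388 and 437 in WT EBs, and 1698 and 258 in CTCF-K20R EBs. Cbx2 was thus above Cbx7 per kb in WT EBs alone among the 4 groups.

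Markers moved with these day 4 differences. The summed level of the 8 pluripotency markers was 15612 to 15721 normalized counts in WT EBs and 31793 to 32581 in CTCF-K20R EBs, with 7 of 8 upregulated and 1 downregulated, and none was at 0 in any group. Most of each sum was Pou5f1, at means of 12646 and 21765. The 7 mesoderm markers summed to between 40617 and 40782 in WT EBs and to between 2391 and 2482 in CTCF-K20R EBs, where Msgn1 was at 0, and all 7 were downregulated. The highest of them was T in WT EBs (mean 20799.9) and Eomes in CTCF-K20R EBs (1811). The 6 endoderm markers summed to between 6816 and 6840.3 in WT EBs and to between 156 and 188 in CTCF-K20R EBs, with the 4 tested downregulated. Of these 4, Gata6 passed the filter only through the WT EBs. How many other endoderm or mesoderm markers did so was not examined, so these counts do not describe the lists. The 4 neural markers in the table summed to between 1928 and 1967 in WT EBs and to between 2664 and 2704 in CTCF-K20R EBs, with 3 upregulated. Most of each neural sum was Nes, at means of 1902 and 2521. The 8 fibroblast markers summed to between 868 and 913 in WT EBs and to between 732 and 789.8 in CTCF-K20R EBs, with 2 upregulated and 2 downregulated among the 6 tested and Postn at 0 in CTCF-K20R EBs. The part of cell composition in the Polycomb differences was not tested.

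Before differentiation, 0 of the 8 subunits passed the test in either direction, while 7.83% of all genes tested were upregulated and 7.57% were downregulated. These shares over all genes fell to 2.20% and 2.74% without CTCF-K20R mESC library 1, to 2.26% and 2.76% without library 2, to 0.146% and 0.209% without the mean-variance trend, and to 0 without either CTCF-K20R EB library. At an unadjusted p under 0.05 (limma) there were 3, namely Suz12, Jarid2 and Cbx7, and with all 8 libraries as separate samples in limma 1 was called upregulated and 5 downregulated, against 23.8% and 24.2% of all genes in that fit. There were 0 DEGs among the 8, against 1.19% upregulated and 2.60% downregulated over all genes tested. The median log2 fold change was -0.17, against -0.01 over all genes. The libraries did not overlap for 6 of the 8, with 1 above and 5 below WT, and 77.9% of all genes tested had no overlap on day 0. Opposite-strand genes also share 158 exonic bases with Rnf2 (Trmt1l), 178 with Suz12 (Gm26563), 174 with Ezh2 (Gm26625) and 261 with Eed (E230029C05Rik), with the same limit. The 95% intervals of Ezh2 and Rnf2 lay within -0.25 to 0.24 on the log2 scale.

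**Figure D2:**
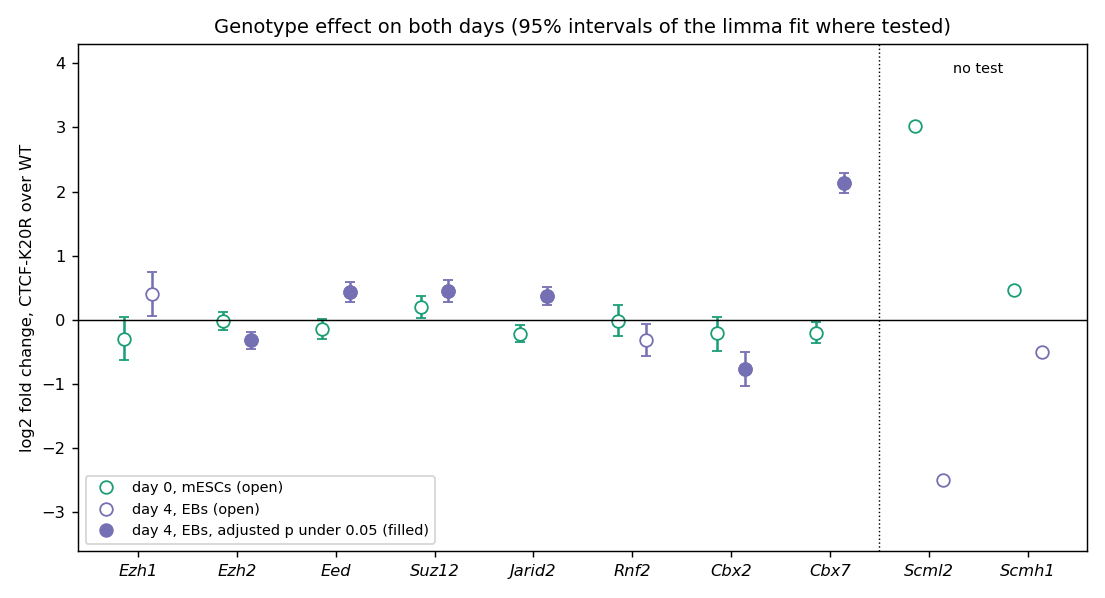
Log2 fold change of CTCF-K20R over WT (vertical axis) for each gene on day 0 (green) and day 4 (purple), with 95% intervals of the limma fit for the 8 subunits and filled points at an adjusted p under 0.05. Cbx7 stands at 2.13 on day 4 and -0.20 on day 0, and Scml2 and Scmh1, which have no test, stand on opposite sides of 0 on the 2 days.

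Whether the genotype effect differed between the days was tested as an interaction in the same limma fit. It was more positive on day 4 for 4 of the 8 subunits and more negative for 2, against 14.7% and 12.0% of all genes tested. Without CTCF-K20R EB library 1 the counts were 1 and 0 of the 8, with 5.19% and 3.59% of all genes, and without library 2 they were again 1 and 0, with 5.07% and 3.53%. The difference between the days in log2 fold change was 2.33 for Cbx7 (SE 0.0909, Benjamini-Hochberg adjusted p = 0.000169 in limma), 0.59 for Jarid2 (adjusted p = 0.00490 from the same test) and 0.58 for Eed (adjusted p = 0.00817 from the same test). It was 0.69 for Ezh1 (adjusted p = 0.0491 from the same test), -0.55 for Cbx2 (adjusted p = 0.0465 from the same test) and -0.31 for Ezh2 (adjusted p = 0.0340 from the same test). Suz12 and Rnf2 did not pass, with differences of 0.24 and -0.31. The calls of Ezh1, Cbx2 and Ezh2 were lost when CTCF-K20R EB library 1 or 2, or CTCF-K20R mESC library 1 or 2, was left out, and those of Eed and Jarid2 were lost without CTCF-K20R EB library 1 or 2, whereas the call of Cbx7 was kept under each of these. The calls of Ezh1 and Cbx2 were also lost without WT mESC library 1, and that of Ezh1 without WT EB library 2.

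From day 0 to day 4, Cbx2 rose and 6 of the 8 subunits fell in CTCF-K20R cells (limma, adjusted p under 0.05), while 29.9% of all genes tested rose and 28.6% fell. Suz12 fell by 1.31 on the log2 scale (Benjamini-Hochberg adjusted p = 2.66e-05 in limma), against a change of -1.55 in WT, which has 1 sample per day and no test. Eed fell by 0.87 in CTCF-K20R and changed by -1.45 in WT, and Jarid2 fell by 0.53 and changed by -1.13 in WT. Cbx7 fell by 0.19 in CTCF-K20R (Benjamini-Hochberg adjusted p = 0.0250 in limma), against -2.52 in WT. That call was lost without either CTCF-K20R EB library or without CTCF-K20R mESC library 1, and with quantile normalization the value was -0.07 and not called. Ezh2 fell by 0.35 and Rnf2 by 0.48 in CTCF-K20R, with WT changes of -0.04 and -0.17. The call of Rnf2 was lost without CTCF-K20R EB library 1 (-0.39, Benjamini-Hochberg adjusted p = 0.0540 in limma). Cbx2 rose by 0.69 in CTCF-K20R and changed by 1.24 in WT, and Ezh1 did not pass the test at -0.10, with -0.79 in WT. The WT changes and the day 4 genotype comparison share the WT EB libraries.

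**Figure D3:**
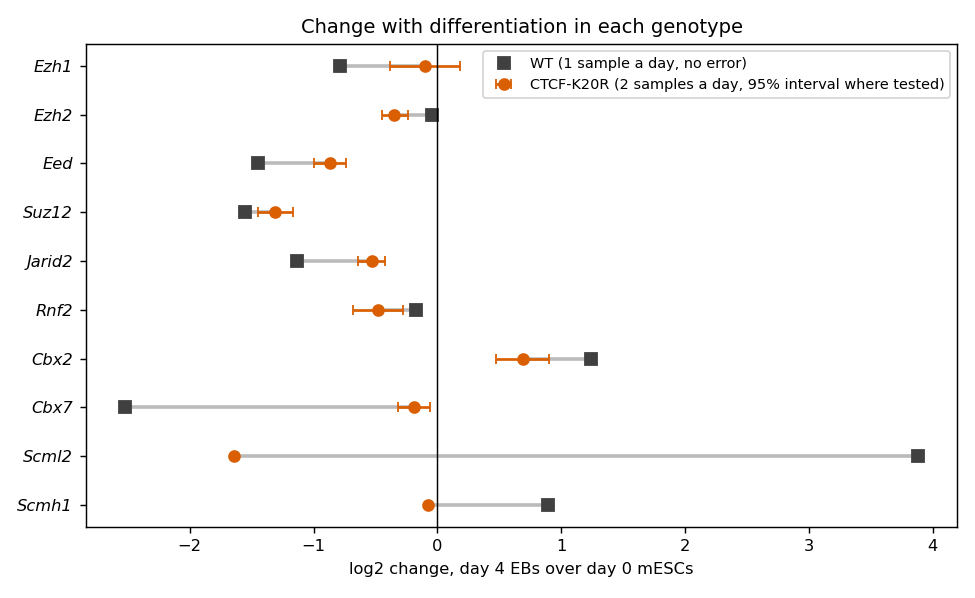
Log2 change from day 0 mESCs to day 4 EBs (horizontal axis) for each gene in WT (squares, 1 sample per day, no error) and CTCF-K20R (circles, 95% intervals for the 8 subunits). Cbx7 lies at -2.52 in WT and at -0.19 in CTCF-K20R, and Scml2 lies at 3.88 in WT and at -1.64 in CTCF-K20R.

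The order of the levels per kb of exon changed with day and genotype. In WT mESCs, Eed and Cbx7 stood highest at 2245 and 2224 normalized counts per kb, and their libraries overlapped. Suz12 followed at 2009, Jarid2 at 1461, Ezh2 at 1234 and Rnf2 at 899.6, with Ezh1, Cbx2 and Scmh1 between 205 and 66.0 and Scml2 at 2.20. In CTCF-K20R mESCs Suz12 was first at 2313, and the neighbours Eed and Cbx7, Jarid2 and Ezh2, and Ezh1 and Cbx2 overlapped between libraries. In WT EBs Ezh2 was first at 1201, ahead of Eed at 823, Rnf2 at 799, Suz12 at 684 and Jarid2 at 669. In CTCF-K20R EBs Cbx7 was first at 1698, followed by Eed at 1115, and Ezh2, Suz12 and Jarid2, at 961, 934 and 869, overlapped with their neighbours. Scml2 was the lowest of the 10 in all 4 groups.

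Scml2 (ENSMUSG00000000037, chrX:161117193-161258213) encodes a Scm protein known for its role in male germ cells. Its normalized counts were 13.5 and 13.1 in WT mESCs, 109 and 120.5 in CTCF-K20R mESCs, 213 and 206 in WT EBs and 38.7 and 33.8 in CTCF-K20R EBs. The CTCF-K20R libraries were thus 8.64-fold above WT on day 0 and 5.78-fold below WT on day 4, with log2 fold changes of 3.02 and -2.50. In WT the level was 15.7-fold higher on day 4 than on day 0, and in CTCF-K20R it was 3.17-fold lower. The lowest WT mESC value, 13.1, is above the 2.43 to 3.44 normalized counts that 3 reads are worth. The 20 nearest genes tested around Scml2 had median log2 fold changes of 0.05 on day 4 and -0.04 on day 0, and the 555 genes tested on chromosome X had medians of -0.09 and -0.06. The 7 germ cell markers summed to 1462 and 1464 in WT mESCs, to 1503 and 1563 in CTCF-K20R mESCs, to 1658 and 1673 in WT EBs and to 1392 and 1452 in CTCF-K20R EBs. Single genes weigh heavily in these sums, since the highest was Prdm1 in WT EBs (mean 672) and Sycp3 in CTCF-K20R EBs (572). The calls did not follow the sums. On day 0, 0 of the 7 were upregulated and 1 was downregulated. On day 4, 3 were upregulated and 1 was downregulated, with a median log2 fold change of 0.35. The part of these markers in the values of Scml2 was not tested.

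Scmh1 (ENSMUSG00000000085, chr4:120405281-120530186) encodes a Scm protein that was found with PRC1 in mammals. It had 229 and 214 normalized counts in WT mESCs, 297 and 319 in CTCF-K20R mESCs, 417 and 407 in WT EBs and 256 and 329 in CTCF-K20R EBs. The groups did not overlap on either day, and the CTCF-K20R libraries were 1.39-fold above WT on day 0 and 1.41-fold below WT on day 4. The spread between the CTCF-K20R EB libraries was wider than for Scml2 relative to the level, 293 ± 51.8 (SD, n = 2) against 36.2 ± 3.47 (SD, n = 2). In WT Scmh1 was 1.86-fold higher on day 4 than on day 0, and in CTCF-K20R the log2 change was -0.08.

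The genes most like each Scm gene over the 8 libraries were found by Pearson's r on the log2 scale, among genes that averaged at least 100 normalized counts. For Scml2 they were Sub1 (r = 0.988), Myl6 (r = 0.983), Sec22b (r = 0.975), Efna2 (r = 0.975) and Tmem14c (r = 0.974), and for Scmh1 they were Clspn (r = 0.992), Zc3h6 (r = 0.985), Il11ra1 (r = 0.977), Tmbim6 (r = 0.976) and Camk1 (r = 0.975). These coefficients rest on 4 group means shared by 8 libraries, were picked as the highest of 11060 and 11059 genes, and are a description. The changes were of another size, since Sub1 had means of 5179.6 in WT mESCs, 5949.7 in CTCF-K20R mESCs, 6159.9 in WT EBs and 5517 in CTCF-K20R EBs.

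The other proteins of the Polycomb complexes were read from lists by subcomplex, 46 genes of which 43 were in the table and tested. On day 4, 15 were upregulated, 9 were downregulated and 19 did not pass (limma, adjusted p under 0.05), and of these 1 was an upregulated DEG and 4 were downregulated DEGs. Over all genes tested, 21.5% were upregulated and 18.6% downregulated, and 6.89% and 8.65% were DEGs. The median log2 fold change was 0.09. On day 0, 5 were upregulated, 5 were downregulated, 33 did not pass and 0 were DEGs, beside 7.83% and 7.57% of all genes tested.

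In canonical PRC1 the CBX and PHC genes held both upregulated and downregulated members on day 4, while Ring1 and Rnf2 both lay below WT, and differences between paralogs were not tested. Among the CBX genes, Cbx6 was upregulated, from 769 and 760.0 normalized counts in WT EBs to 2378 and 2091 in CTCF-K20R EBs (log2 fold change 1.54, Benjamini-Hochberg adjusted p = 0.000176 in limma), and Cbx8 did not pass at -1.65, with 71.1 and 65.5 against 39.6 and 10.9. Among the PHC genes, whose products polymerize PRC1, Phc1 was upregulated from 5720.4 and 5601 to 10958 and 11577 (log2 fold change 0.99, adjusted p = 0.000117 from the same test) and Phc2 was downregulated from 1757 and 1762 to 662 and 746 (log2 fold change -1.32, adjusted p = 0.000939 from the same test). Ring1, the paralog of Rnf2, was downregulated from 402 and 400.3 to 132 and 182 (log2 fold change -1.37, adjusted p = 0.00700 from the same test). Bmi1, which encodes a PCGF subunit, was downregulated from 474 and 475 to 178 and 124 (log2 fold change -1.67, adjusted p = 0.00927 from the same test), while its log2 fold change on day 0 was 0.70 (adjusted p = 0.186 from the same test). Of the 6 PCGF genes, 2 were upregulated, 1 was downregulated and 3 did not pass, and Pcgf1, with a log2 fold change of 0.59 on day 0, did not pass on either day.

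**Figure D4:**
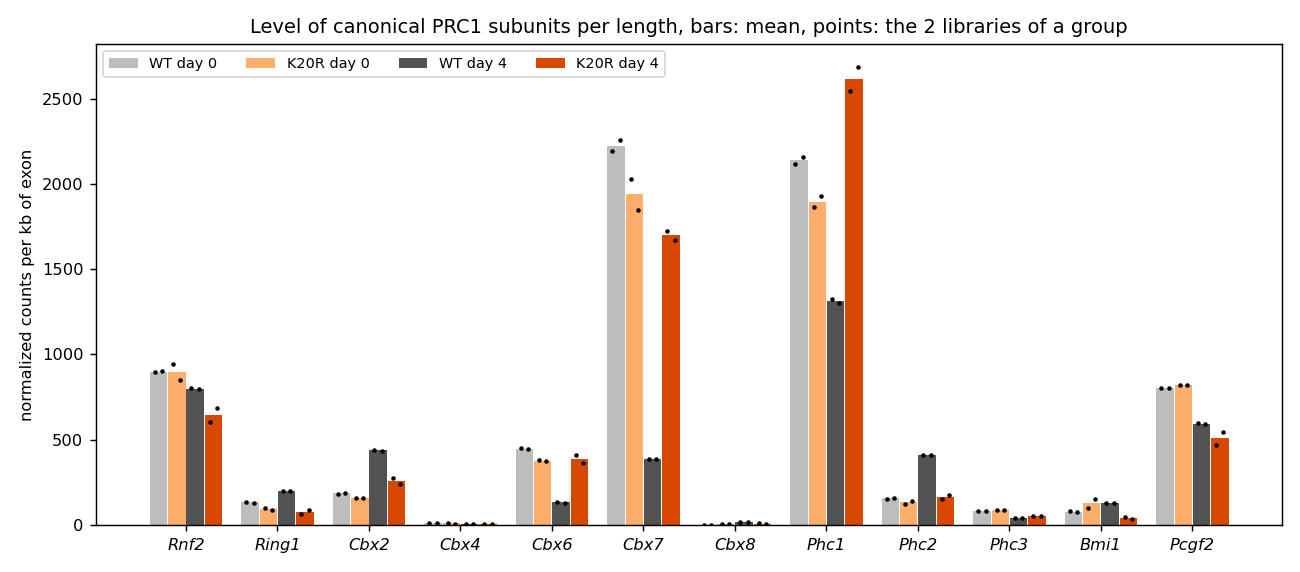
Normalized counts per kb of exon (vertical axis, from 0) of canonical PRC1 genes in the 4 groups, with bars for the mean and points for the 2 libraries of a group. Cbx7, Cbx6 and Phc1 stand at 388, 132 and 1313 in WT EBs and at 1698, 385 and 2614 in CTCF-K20R EBs, while Cbx2, Ring1 and Phc2 stand at 437, 197 and 410.4 in WT EBs and at 258, 77.2 and 164 in CTCF-K20R EBs.

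In the remaining lists, Rbbp7, a histone-binding subunit of PRC2, was downregulated on day 4 (log2 fold change -0.33, Benjamini-Hochberg adjusted p = 0.00358 in limma) and its paralog Rbbp4 did not pass at -0.06. Among the 5 other PRC2 accessory genes tested, 1 was upregulated and 4 did not pass, including Phf19 at 0.82 and Lcor at -0.37. Of 7 further SCM and MBT genes tested, 2 were upregulated, 1 was downregulated and 4 did not pass. L3mbtl3 was the downregulated gene, with 1212 and 1189 normalized counts in WT EBs against 799 and 835 in CTCF-K20R EBs. On day 0 it had 119 and 127 in WT against 167 and 176 in CTCF-K20R. That day 0 difference passed only close to the threshold (log2 fold change 0.48, Benjamini-Hochberg adjusted p = 0.0477 in limma). The genotype effect on L3mbtl3 differed between the days by -1.03 (Benjamini-Hochberg adjusted p = 0.00899 in limma), and L3mbtl1 did not pass on day 4 at 1.68. Among 10 partners of variant PRC1, 4 were upregulated and 2 downregulated on day 4. Mga was 1 of the upregulated (0.14), after a log2 fold change of -0.58 on day 0, and Yaf2 did not pass at -0.60. Of the 6 genes of the H2A deubiquitinase and the H3K27 demethylases, 3 were upregulated, among them Asxl2 (0.64, after -0.36 on day 0), and 2 were downregulated, among them Asxl3 (log2 fold change -1.50, Benjamini-Hochberg adjusted p = 0.00517 in limma).

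**Figure D5:**
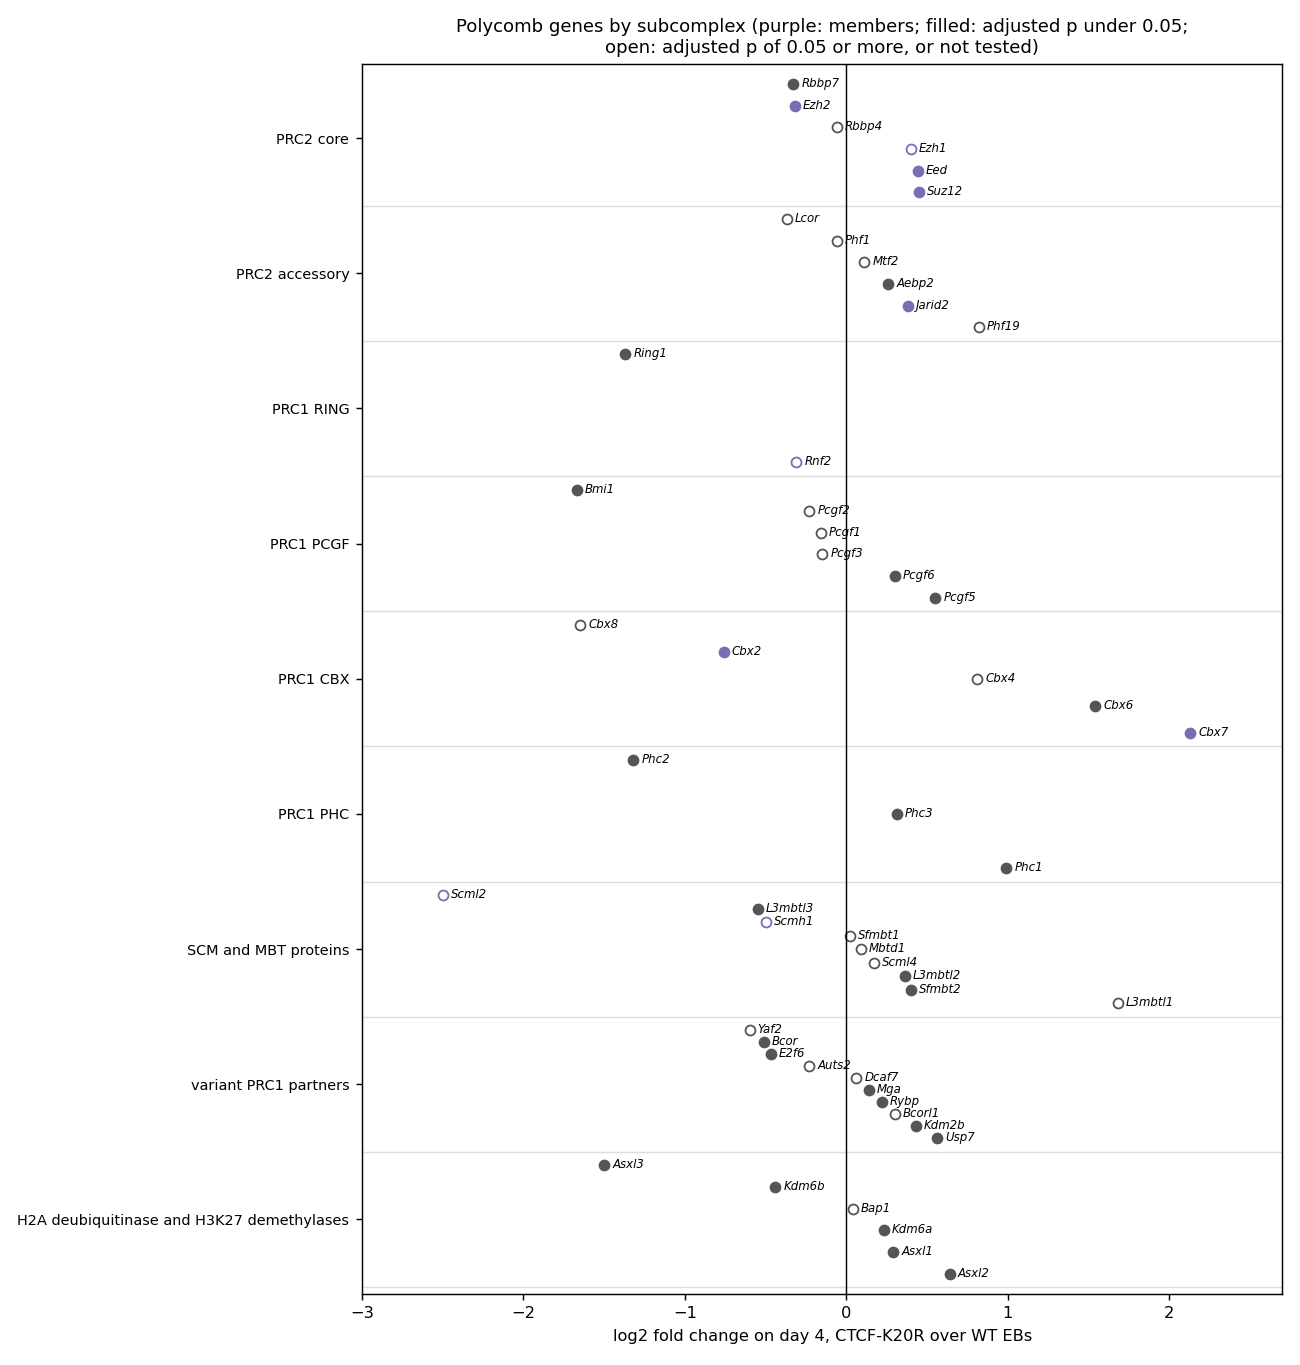
Log2 fold change on day 4 of CTCF-K20R over WT EBs (horizontal axis) for the Polycomb genes of each subcomplex (rows). Purple marks the 10 genes followed here and grey the other genes, and filled points have an adjusted p under 0.05. Genes lie on both sides of 0 in every row except that of PRC1 RING, and in the CBX row Cbx7 is at 2.13 and Cbx2 at -0.76.

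Genes that are textbook targets of Polycomb were read from a list of 20, of which 17 were in the table and 12 passed the filter. On day 4, 7 of these were downregulated, 2 were upregulated and 3 did not pass, but 5 of the 12 averaged under 10 normalized counts in the other 6 libraries and passed the filter only through the WT EBs, so the count does not describe the list. Gata4, Foxa2, Cdx2 and Irx3 were downregulated and pass the filter without the WT EBs, with log2 fold changes of -4.38, -4.91, -4.63 and -2.80. The downregulated Gata6, Hand1 and Hand2 are among the 5 that do not. Gata6, a transcription factor of endoderm and heart, had 1207 and 1205 normalized counts in WT EBs against 4.69 and 10.7 in CTCF-K20R EBs. Hand2, a cardiac transcription factor, was at least 11.5-fold lower in CTCF-K20R EBs, where both libraries were at or under 3 reads. The 2 upregulated targets were Pax6, a neural transcription factor, with 12.4 and 16.0 against 100.2 and 84.2, and Cdkn2a, a cell cycle inhibitor, with 56.6 and 62.2 against 185 and 169.9. On day 0, 0 of the 12 passed the test. H3K27 methylation and H2A ubiquitination were not measured in these libraries.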

How the data were processed

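RNA-seq was measured in 8 libraries of E14Tg2A mESCs and EBs (2 per genotype and day), grouped by GEO's labels. The authors trimmed reads with Trim Galore, quantified them with Salmon on mm10, collapsed transcripts into genes by tximport and scaled the libraries with DESeq2. Deposited by the authors is 1 signal column per library, which holds these normalized counts. Between 33.4% and 46.5% of values under 20 lay within 0.05 of whole reads, so whole reads were not recovered and count models were not applied. The annotation release and the use of strand are not given in the sources used here.

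The test was limma 3.58.1 (R 4.3.3) on log2(value + 1), with eBayes following the mean-variance trend (degrees of freedom 2 residual, 3.51 prior), WT pairs averaged (6 samples) and Benjamini-Hochberg adjustment over 15767 genes with a mean of at least 10. Folds of low genes are understated on this scale. The study describes the libraries of a group as biological replicates from independent experiments. Because the WT pairs were averaged, p-values rest on the spread between the CTCF-K20R libraries, pooled over both days. The fit draws this spread toward that of genes at a similar level and assumes the same spread for WT. Limits in reads cover counting error only. The fit was tested on simulated data. Positions and exon lengths came from GENCODE vM21 (15664 of 15767 identifiers found) and promoters from RefSeq. Python 3.11.15 with pandas 2.3.3, numpy 2.4.6 and matplotlib 3.10.9 made the tables and plots. Genes named beyond the 10 are the DEGs of the Polycomb lists, up to 2 per list with the largest effect, the 5 genes most like each Scm gene, neighbours, markers and Ctcf. The 6 proliferation markers summed to between 52592 and 52620.3 in WT EBs and to between 64371 and 65505 in CTCF-K20R EBs. Members and lists were chosen with earlier results of these data known. The authors' own comparisons were not used. Alternatives changed the pseudocount, filter, scaling, variance model, threshold and samples.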

Additional observations from a re-analysis of the deposited data

Results flagged for a closer look

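The genotype effect differed between the days for 6 of the 8 subunits by the limma interaction with Benjamini-Hochberg adjustment, while 14.7% of all genes tested had a more positive and 12.0% a more negative effect on day 4. The calls of Jarid2, Eed, Ezh1, Ezh2 and Cbx2 were lost without CTCF-K20R EB library 1 or without library 2, which left 1 more positive and 0 more negative of the 8 in each case (5.19% and 3.59% of all genes without library 1, 5.07% and 3.53% without library 2). The difference in log2 fold change, day 4 minus day 0, was 2.33 for Cbx7 (adjusted p = 0.000169), 0.59 for Jarid2 (adjusted p = 0.00490), 0.58 for Eed (adjusted p = 0.00817), 0.69 for Ezh1 (adjusted p = 0.0491), -0.31 for Ezh2 (adjusted p = 0.0340) and -0.55 for Cbx2 (adjusted p = 0.0465) in limma. In Scml2 and Scmh1 every CTCF-K20R library was above WT on day 0 and below WT on day 4, with differences of -5.52 and -0.98. These 2 genes were chosen by that pattern and the difference was not tested.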

How the results depend on the processing

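Over 20 alternative settings, 694 of 780 values of the 10 genes kept their direction and their side of the threshold, or moved by less than their spread where there was no test. On day 4, 1 subunit was upregulated and 1 downregulated without the mean-variance trend (4 and 2 in the report), and leaving out 1 library gave 1 to 3 downregulated (1 without CTCF-K20R EB library 1). On day 0, where 0 were called, all 8 libraries as separate samples gave 1 upregulated and 5 downregulated. A pseudocount of 5, a mean of at least 50, quantile normalization and the same total per library each gave 1 downregulated, and leaving out 1 library gave 0 to 1. For the difference between the days, the count of more negative effects fell from 2 to 0 with every gene above 0, without the trend and at an adjusted p under 0.01, and the count of more positive ones fell from 4 to 1 without the trend. Leaving out 1 library gave 0 to 2 and 1 to 4. With 1 library left out, 4 values near 0 changed sign: the day 0 log2 fold changes of Ezh2 (-0.05 to 0.02) and Rnf2 (-0.08 to 0.07) and the changes from day 0 to day 4 in CTCF-K20R of Ezh1 (-0.22 to 0.02) and Scmh1 (-0.26 to 0.10). Replicate numbers did not pair the samples (correlations of deviations from -0.0443 to 0.0212 over 11060 genes). The replicate block gave 1 upregulated subunit on day 0 with WT pairs averaged, and 1 upregulated and 4 downregulated with all 8 libraries. The causes of these changes were not tested. With 2 CTCF-K20R libraries per day, small differences are poorly determined, and low genes such as Scml2 depend on the pseudocount (day 0 log2 fold change 2.71 and difference between the days -5.09 at a pseudocount of 5).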
